A study of Mus musculus with 33 samples.

Results

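Broad Menin domains are stretches of 5 kb (5000 bp) or more that the authors listed as a single Menin peak in growing C2C12 myoblasts, a mouse muscle precursor line. They were taken as the autosomal rows of the pooled Menin list whose right boundary minus left boundary was 5000 bp or more, which gave 675 of 68934 autosomal Menin peaks (0.979%). The 675 domains covered 4.65 Mb, which was 6.82% of all bases under Menin peaks. The domains were thus chosen by the width of their Menin peak, so widths and Menin values are given as a description, with no test.

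Menin is a scaffold protein that holds MLL1, a methyltransferase for lysine 4 of histone H3 (H3K4), at chromatin. In other cell types the pair is best known for keeping homeobox (Hox) genes active, where it spreads over long stretches of a gene cluster. Wdr5 is a core subunit shared by the MLL complexes, MLL3 is the methyltransferase known for H3K4 mono-methylation at enhancers, ING1 reads tri-methylated H3K4 and belongs to Sin3 deacetylase complexes, Sin3A is the scaffold of those complexes, and LSD1 removes methyl groups from H3K4.

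Binding was mapped by chromatin immunoprecipitation and sequencing (ChIP-seq) of sonicated chromatin. Growing myoblasts in 10% fetal bovine serum gave lists for Menin (2 replicates), MLL1 (2), Wdr5 (3), ING1 (2), LSD1 (1) and MLL3 (1), and myotubes after 96 h in 2% horse serum gave lists for ING1 (3), Sin3A (2) and LSD1 (1). The labels name no genetic change of these C2C12 cells except in those for ING1, which were a stable line made by retroviral transfer of Flag-tagged ING1 and puromycin selection, and ING1 was pulled down through the tag. No Menin list of myotubes was analysed here, so the domains are places where Menin lay in myoblasts, and the myotube lists are read at those places. The 10 input libraries and the 6 RNA libraries are left aside.

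The lists held peak boundaries only, so sequencing depth and peak height are unknown. Replicate lists of a factor differed widely in length, with 9270 and 426 autosomal peaks for Sin3A. Coverage, the percentage of the bases of a set of regions that lie under peaks of a list, depends on that length, so coverage of the domains by a list is compared with the same list's coverage of narrower Menin peaks. Values for single domains have no such comparison. The labels do not state separate cultures for replicates, so a p-value here speaks of the spread between libraries alone, and that spread may be technical. For MLL1 the source label reads Menin whereas title and antibody read MLL or MLL1, and these were followed. The Sin3A samples are taken as myotubes, as their own labels say, although the text on the whole series has myoblasts.

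The domains ranged from 5001 to 48033 bp, with a median of 6047 bp and quartiles of 5423.5 and 7240 bp, against a median of 658 bp for all autosomal Menin peaks. Of the 675, 327 were under 6 kb, 47 were 10 kb or more and 5 were 20 kb or more. The narrowest members (mouse build mm9 throughout) were chr16:16213397-16218397 and chr13:5863343-5868343, each of 5001 bp, and chr6:29996977-30001983, of 5007 bp. MLL1 covered 65.5% of the first, none of the second and 27.6% of the third. The 3 widest peaks outside the rule were chr10:69557286-69562281 (4996 bp), chr6:51415201-51420192 (4992 bp) and chr8:108160446-108165433 (4988 bp), with MLL1 on 31.3%, 30.1% and 18.7%. Widths therefore ran on without a gap at 5 kb, and 670 Menin peaks of 4 to 5 kb served as the nearest comparison.

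The 2 Menin replicate lists, of the samples whose labels name the pooled list, both held peaks at nearly all domains. Replicate 1 (22868 autosomal peaks) met 671 domains, against 24.5% of all autosomal Menin peaks, and replicate 2 (15648 peaks) met 659, against 17% of all. Every domain was met by at least 1 of them. They covered 73.5% and 62.9% of the domain bases and 27.8% and 19.1% of the bases of Menin peaks under 5 kb. Most domains were broken into pieces in a single replicate, with 2 or more peaks at 524 domains in replicate 1 and 503 in replicate 2, and a median of 2 pieces in each. At least 50% of the width lay under each replicate list at 447 domains (66.2%), against 6.37% of all autosomal Menin peaks. These values belong to the measure that chose the domains and support nothing further.

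Domains were unevenly spread over the 19 autosomes. Chromosome 3 held 63, which was 9.33% of the domains against 5.93% of all Menin peaks, and chromosome 15 held 61 (9.04% against 7.43%). Chromosome 7 held the fewest, 14 (2.07% against 3.50%). Median widths per chromosome stayed between 5774 bp on chromosome 12 and 6637 bp on chromosome 10. Neighbouring domains tended to be far apart, with a median gap of 1759 kb, but 21 gaps were under 1 kb. When domains within 50 kb of one another were joined they formed 599 loci, of which 47 held 2 domains and 10 held 3 or more, up to 7.

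MLL1 coverage was higher in each wider class of Menin peak from 1 kb on, past the 5 kb threshold. Its pooled list covered 1.45% of the bases of Menin peaks under 500 bp, 4.94% at 1 to 2 kb, 11.04% at 2 to 3 kb, 15.4% at 3 to 4 kb, 20.02% at 4 to 5 kb and 29.6% in the domains. Within the domains it went on from 23.6% at 5 to 6 kb (327 domains) to 26.1% at 6 to 8 kb (234), 33.5% at 8 to 10 kb (67) and 49.3% at 10 kb and more (47). Both MLL1 replicate lists had the same order over these 4 classes, replicate 1 from 13.1% to 37.6% and replicate 2 from 1.81% to 11.7%. MLL1 met 535 of the 675 domains (79.3%, exact binomial 95% interval 76.0 to 82.3, for counting error only), against 8.16% of all autosomal Menin peaks. It covered at least 50% of 111 domains (16.4%), against 2.28% of all.

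**Figure D1:**
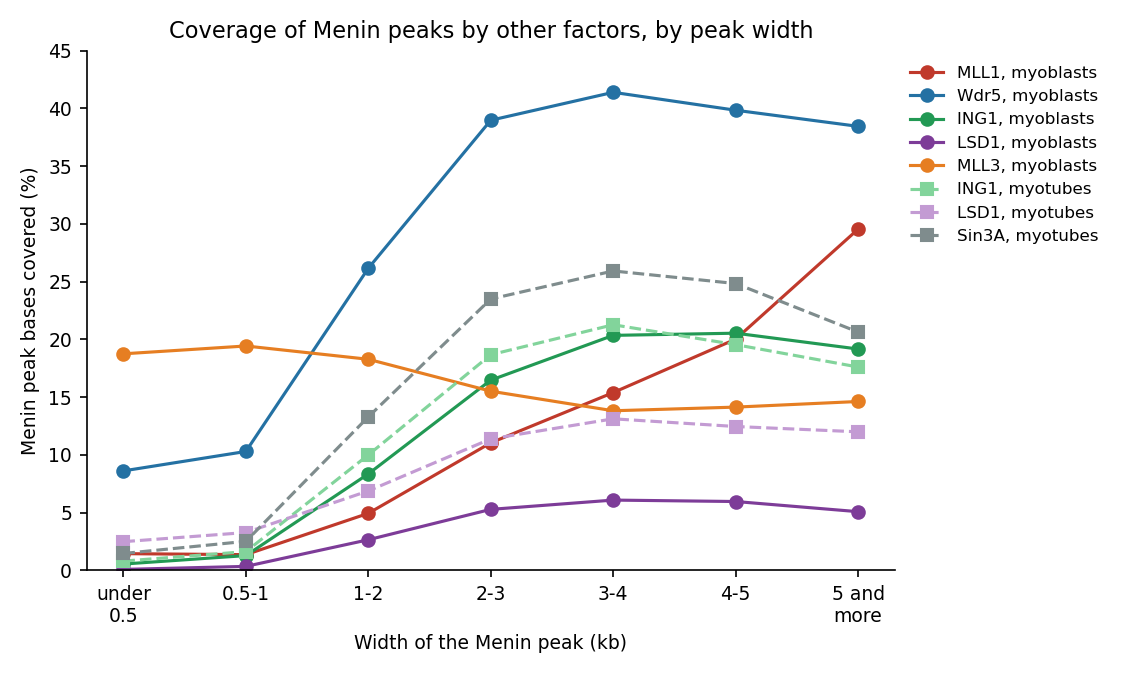
Percentage of Menin peak bases (vertical axis) covered by each of 8 pooled or single lists, for 7 classes of Menin peak width in kb (horizontal axis); solid lines with circles are myoblast lists and dashed lines with squares are myotube lists. MLL1 reaches 29.6% in the domains of 5 kb and more from 20.02% at 4 to 5 kb, while Wdr5, ING1, LSD1 and Sin3A are below their values at 4 to 5 kb.

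The other partners had no higher coverage in the domains as a whole than at 4 to 5 kb, apart from a small difference for MLL3. Wdr5 covered 41.4% of the bases of Menin peaks of 3 to 4 kb, 39.8% at 4 to 5 kb and 38.5% in the domains. ING1 of myoblasts had 20.4%, 20.5% and 19.2% in these classes, ING1 of myotubes 21.3%, 19.5% and 17.6%, Sin3A 25.9%, 24.8% and 20.6%, LSD1 of myoblasts 6.08%, 5.96% and 5.08%, and LSD1 of myotubes 13.1%, 12.5% and 12.0%. MLL3 was lower at wide than at narrow Menin peaks, with 19.4% at 500 to 1000 bp, 13.8% at 3 to 4 kb, 14.1% at 4 to 5 kb and 14.6% in the domains. Counted by chromosome, MLL1 covered more of the domains than of the 4 to 5 kb peaks on all 19 autosomes, MLL3 on 12, Wdr5 and LSD1 of myotubes on 8, ING1 of myoblasts on 7, ING1 of myotubes and LSD1 of myoblasts on 6 and Sin3A on 2. Over the 4 width classes within the domains Wdr5 had 37.2%, 38.1%, 31.8% and 48.2%, so at 10 kb and more it was close to MLL1 (49.3%). LSD1 of myotubes went from 11.5% at 5 to 6 kb to 14.3% at 10 kb and more, ING1 of myoblasts from 19.3% to 19.6%, MLL3 from 14.5% to 12.1%, ING1 of myotubes from 19.2% to 14.4% and Sin3A from 22.2% to 15.7%.

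The replicate lists were then compared one by one. MLL1 replicate 1 (4098 peaks) covered 18.9% of the domain bases, 10.2% of the 4 to 5 kb peaks and 2.61% of all Menin peaks under 5 kb. MLL1 replicate 2 (460 peaks) covered 4.06%, 1.14% and 0.180%. Coverage of the domains was thus 7.27 and 22.5 times that of Menin peaks under 5 kb, so both lists pointed the same way although the second was far shorter. Wdr5 covered 11.6%, 5.61% and 5.96% of the domain bases in its 3 lists, 1.58 ± 0.0973 times its coverage of Menin peaks under 5 kb (SD, n = 3). That ratio was 3.58 and 2.47 for ING1 of myoblasts, 2.06, 2.15 and 1.71 for ING1 of myotubes, and 1.79 and 1.29 for Sin3A. All 12 replicate lists other than Menin therefore covered more of the domains than of narrower Menin peaks, and no factor's lists alone can reach a small p in a paired comparison (exact sign-flip permutation p = 0.25 with 3 lists and 0.5 with 2, the smallest possible).

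**Figure D2:**
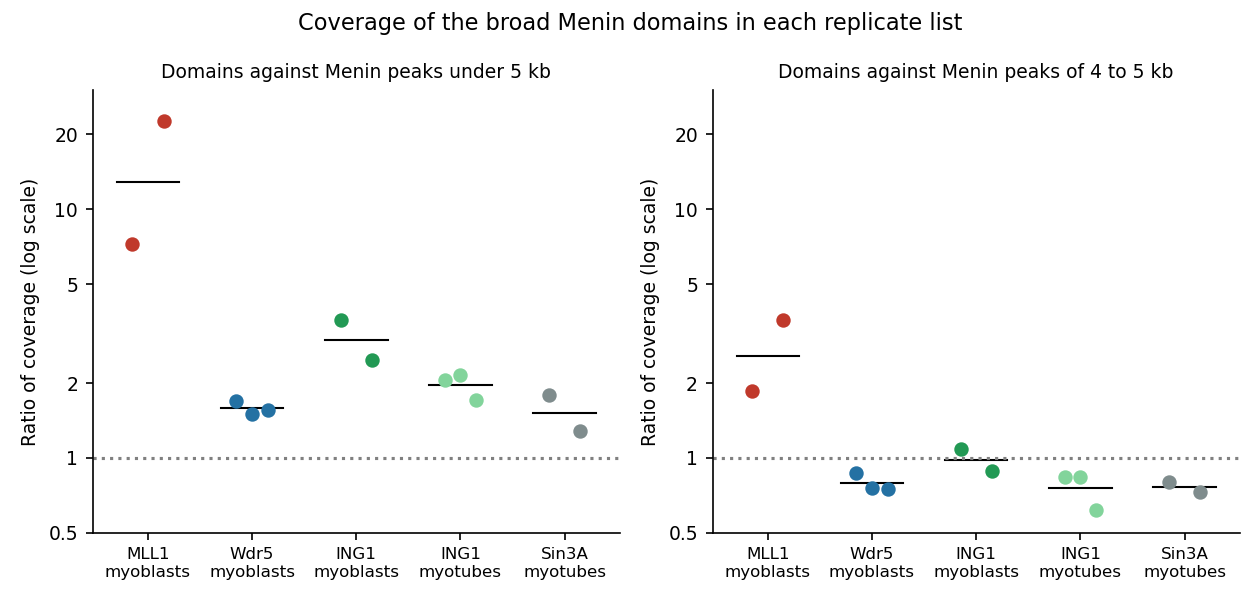
Coverage of the domains divided by coverage of all Menin peaks under 5 kb (left) or of Menin peaks of 4 to 5 kb (right), on a log scale; each point is 1 replicate list and each bar the geometric mean of its group. The MLL1 lists, at 7.27 and 22.5 on the left and 1.85 and 3.57 on the right, lie above every other list.

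Against the 4 to 5 kb peaks the ratio was 1.85 and 3.57 in the MLL1 lists and 0.792 ± 0.0666 in the Wdr5 lists (SD, n = 3). It was 1.08 and 0.882 for ING1 of myoblasts, 0.763 ± 0.126 for ING1 of myotubes (SD, n = 3), and 0.801 and 0.727 for Sin3A. The 2 MLL1 lists did not overlap the other 10. On the log2 scale they averaged 1.36 ± 0.67 (SD, n = 2) and the others −0.31 ± 0.21 (SD, n = 10), with an exact two-sided permutation p of 0.0303, the smallest this design allows, and 0.106 after adjustment over the 7 tests made on replicate lists. Against the 5 ING1 and Wdr5 lists of myoblasts alone the exact permutation p was 0.0952 (adjusted 0.167), again the smallest possible. These comparisons were chosen after the values had been seen, and the 10 other lists come from 4 groups that are not replicates of one another.

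A large part of the MLL1 lists lay in the domains. They held 21.6% of all bases under pooled MLL1 peaks, 30.6% of those of replicate 1 and 61.5% of those of replicate 2. In the other pooled or single lists the share was 13.2% for ING1 of myoblasts, 12.2% for LSD1 of myoblasts, 10.7% for ING1 of myotubes and 8.35% for Sin3A. It was 4.28% for LSD1 of myotubes, 3.95% for Wdr5 and 0.417% for MLL3, the last 2 being the longest lists (58123 and 208538 peaks). Replicate lists gave 18.9% and 14.0% for ING1 of myoblasts and 7.67% to 12.0% for ING1 of myotubes. They gave 7.95% to 8.47% for Wdr5 and 7.49% and 9.67% for Sin3A. MLL1 peaks that met a domain had a median width of 908 bp against 541 bp elsewhere. The median was higher at the domains in each of the 8 lists, with 1326 against 604 bp for Wdr5 and 932 against 634 bp for MLL3. All 26 MLL1 peaks of 5 kb or more met a domain, against 12.0% of all MLL1 peaks. So did 19 of the 24 Wdr5 peaks of that width (79.2%, against 1.96% of all Wdr5 peaks). For LSD1 of myotubes it was 9 of 63 (14.3%, against 3.62%) and for MLL3 18 of 341 (5.28%, against 0.272%). A wide peak has more bases at which to meet a domain, which these counts do not allow for.

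Among the pooled and single lists, that of Wdr5 met the most domains, but it was also long (58123 peaks, against 8795 for MLL1). It met 615 (91.1%), against 24.2% of all autosomal Menin peaks, and covered at least 50% of 189 (28.0%), against 16% of all. Single replicate lists had another order. The longest Wdr5 list (9319 peaks) met 61.0%, MLL1 replicate 1 65.9%, ING1 myoblast replicate 2 63.4% and Sin3A replicate 1 70.1%. Of the domain bases under MLL1, 67.6% were also under Wdr5, against 26.2% of the other domain bases. In the other direction, 52.0% of the domain bases under Wdr5 were also under MLL1, against 15.5% of the other domain bases. Sharing with Wdr5 was not particular to MLL1. It was 78.4% to 85.0% for ING1 in either state, Sin3A and LSD1 of myoblasts, 60.7% for LSD1 of myotubes and 33.3% for MLL3. Of the domain bases, 50.3% lay under MLL1, Wdr5, ING1 or LSD1 of myoblasts, and 58.9% when MLL3 was added. The rest lay under the pooled Menin list by the rule that chose the domains, so this does not show Menin reaching beyond its partners. The Menin replicate lists themselves covered 73.5% and 62.9% of the domain bases.

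ING1 of myoblasts met 519 domains (76.9%, against 9.34% of all autosomal Menin peaks) and LSD1 of myoblasts met 350 (51.9%, against 5.26%). Their peaks were islands inside the domains. Where present, ING1 covered a median of 22.7% of a domain and LSD1 8.71%, and 81.03% of the domain bases under ING1 were also under Wdr5. ING1 covered at least 50% of 25 domains (3.70%, against 2.66% of all autosomal Menin peaks). LSD1 covered at least 50% of none (0 of 675, at most 34.6% of 1 domain), against 0.258% of all. MLL1, Wdr5 and ING1 met together at 428 domains (63.4%, against 3.98% of all), and LSD1 of myoblasts joined them at 280 (41.5%, against 1.99%). Domains are wider than the other Menin peaks and a wide region has more bases at which to meet a peak, a difference that counts of domains met do not allow for and that coverage per base does.

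Coverage by all lists but MLL3 was highest towards the middle of the domains and lower at their ends, as it also was at Menin peaks of 4 to 5 kb. In the central 20% of the width, MLL1 covered 40.3%, Wdr5 44.9%, ING1 26.6% and LSD1 of myoblasts 7.43%. The outermost 10% at each end had 12.0%, 23.1%, 6.94% and 1.45%, and the adjoining 10% just outside had 3.59%, 9.19%, 1.91% and 0.321%. Among the myotube lists Sin3A had 26.1% in the centre, 8.10% in the outermost 10% and 2.59% outside. MLL3 was flat, with 14.2%, 15.6% and 13.8%. At Menin peaks of 4 to 5 kb the central 20% had less MLL1 than in the domains (29.4%), and more Wdr5 (52.2%), ING1 of myoblasts (32.2%), LSD1 of myoblasts (9.97%) and Sin3A (37.3%), with MLL3 at 13.2%. Over flanks as long as the domains on either side, MLL3 covered 15.9%, against 14.6% inside.

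**Figure D3:**
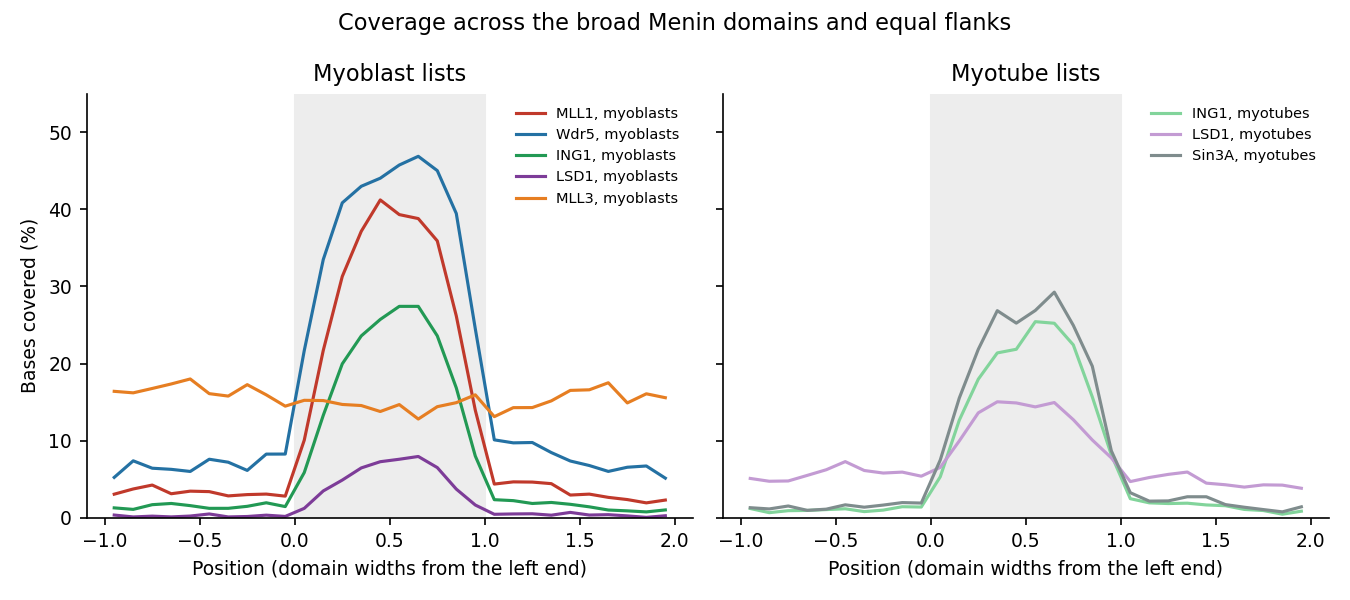
Percentage of bases covered (vertical axis) along 675 domains scaled to equal width and along flanks of the same width (horizontal axis, in domain widths from the left end; grey marks the domain), for 5 myoblast lists (left) and 3 myotube lists (right). MLL1, Wdr5, ING1, LSD1 and Sin3A peak inside the domain, whereas MLL3 is at 14.2% in the central 20% of the width and 13.8% just outside.

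MLL3 coverage of the domains was not above that of their flanks. These flanks were not free of Menin, with 31.1% of their bases under Menin peaks. MLL3 met 367 domains (54.4%, against 29% of all autosomal Menin peaks), and its coverage was 0.826 times that of Menin peaks under 5 kb and 0.919 times that of the flanks. Coverage of the domains exceeded that of Menin peaks under 5 kb on 1 of the 19 autosomes. MLL3 had a single list, so this has no replicate check. It covered at least 50% of 58 domains (8.59%), against 18.7% of all autosomal Menin peaks. Read together with MLL1, 278 domains met both methyltransferases (41.2%, against 2.52% of all autosomal Menin peaks) and 257 met MLL1 without MLL3 (38.1%, against 5.64%). Another 89 met MLL3 without MLL1 (13.2%, against 26.5%) and 51 neither (7.56%, against 65.3%).

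Domains with extensive MLL3 had less MLL1 than the domains as a whole. In the 58 domains with MLL3 on 50% or more of the width, MLL1 covered 16.9% of the bases and LSD1 of myotubes 28.1%. The 111 domains with MLL1 on 50% or more showed the opposite order, with MLL3 on 9.13%, LSD1 of myotubes on 8.83% and Wdr5 on 52.3%. Both sets shared 2 domains (0.296%, against 0.241% of all autosomal Menin peaks), a share near the background. MLL3 and LSD1 of myotubes both covered 50% or more of 12 (1.78%, against 0.876%). Menin support differed between the sets, with replicates 1 and 2 on 62.6% and 49.03% of the MLL3-rich domains and 90.5% and 87.6% of the MLL1-rich ones, and its part in the contrast was not tested. Over all 675 domains Spearman's rho between MLL1 and MLL3 coverage was −0.19, and between MLL3 and LSD1 of myotubes 0.19, both weak and given as descriptions of regions that share libraries. Chromosome 15 held 13 of the 58 MLL3-rich domains and 12 of the 111 MLL1-rich ones. It also held 10 of the 29 domains with LSD1 of myotubes on 50% or more (34.5%), against 9.04% of all domains. Its domains had the highest coverage of any autosome by MLL3 (27.9%) and by LSD1 of myotubes (22.9%). Without chromosome 15, MLL3 coverage of the domains was 13.01%, LSD1 of myotubes 10.7% and MLL1 29.0%.

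The 140 domains that MLL1 did not meet were poorer in every factor but MLL3. Wdr5 met 107 of them and covered 27.3% of their bases, against 40.9% in the 535 domains with MLL1. ING1 of myoblasts covered 12.02% against 20.7% and Sin3A 15.9% against 21.7%. MLL3 met 89 (63.6%) and covered 21.8%, against 52.0% and 13.04% of the domains with MLL1. Support by the Menin replicate lists moved with this split: replicate 1 covered 53.2% of the bases without and 78.0% with MLL1, and replicate 2 covered 38.4% and 68.3%. The part of weaker Menin support in these differences was not tested. MLL1, Wdr5 and ING1 of myoblasts were all missing from 26 domains (3.85%, against 73.3% of all autosomal Menin peaks), and 9 domains, from 5155 to 6504 bp, met none of the 8 lists (1.33%, against 48.9%). All of the 8 lists met at 100 domains (14.8%, against 0.561%).

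**Figure D4:**
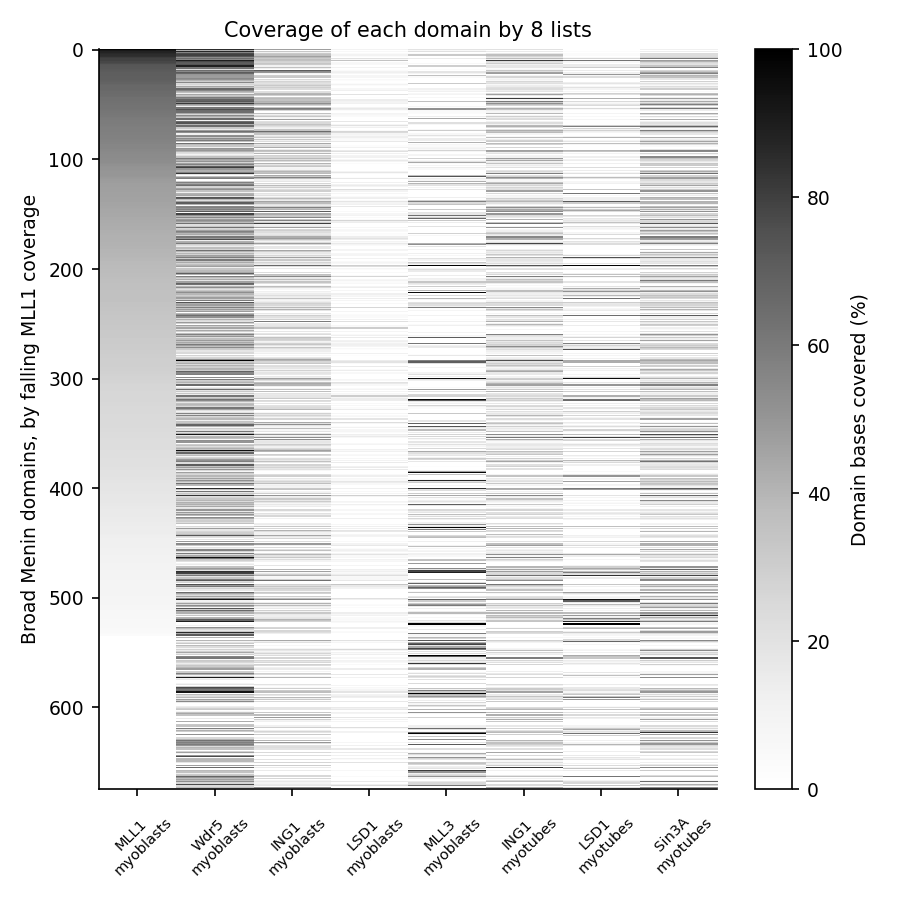
Each row is 1 of the 675 domains, ordered by falling MLL1 coverage, each column 1 of the 8 lists, and the grey level the percentage of the domain covered (scale at right). Of the 58 rows with MLL3 on 50% or more and the 29 with LSD1 of myotubes on 50% or more, 2 each are among the 111 top rows where MLL1 covers 50% or more. Those 111 are 16.4% of all 675 rows, and counts this small are a description only.

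Differentiation was followed at the domains through ING1 and LSD1, which were mapped in both states. The pooled ING1 list covered 19.2% of the domain bases in myoblasts and 17.6% in myotubes, and at Menin peaks under 5 kb 7.91% and 8.85%. ING1 was listed in both states at 464 domains (68.7%, against 7.42% of all autosomal Menin peaks), in myoblasts only at 55 (8.15%, against 1.92%), in myotubes only at 38 (5.63%, against 3.21%) and in neither at 118 (17.5%, against 87.5%). In myotubes it met 502 domains in all (74.4%, against 10.6%) and covered at least 50% of 29 (4.30%, against 3.28%). ING1 coverage was higher in myotubes at 251 domains (37.2%, against 6.88% of all autosomal Menin peaks) and lower at 306 (45.3%, against 5.62%), so the domains did not share a direction. The remaining 118 were equal at 0.

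In the replicate lists the coverage of the 2 states overlapped. ING1 covered 0.938% and 11.8% of the domain bases in the 2 myoblast lists and 3.25%, 4.04% and 0.103% in the 3 myotube lists, so the groups overlap. The means were 6.35 ± 7.66% (SD, n = 2) and 2.46 ± 2.08% (SD, n = 3), an exact permutation p of 0.6 where 0.2 is the smallest possible. Without ING1 myoblast replicate 2 the difference between myotubes and myoblasts turned from −3.89 to 1.53 percentage points. The share of each ING1 list's bases that lay in the domains is relative to the list's own total. It was 18.9% and 14.0% in myoblasts and 11.5%, 12.0% and 7.67% in myotubes, 16.5 ± 3.52% (SD, n = 2) against 10.4 ± 2.38% (SD, n = 3). The myoblast lists were both higher, with an exact permutation p of 0.2, the smallest possible, and 0.233 after adjustment over 7 tests. This measure was added after the data had been seen. The ratio of domain coverage to coverage of Menin peaks under 5 kb, given above for each list, was likewise higher in both myoblast lists, 3.03 ± 0.787 (SD, n = 2) against 1.97 ± 0.228 (SD, n = 3), with the same exact permutation p of 0.2 (adjusted 0.233). On 2 of the 3 measures the lists of the states thus did not overlap, in a design too small to pass the threshold. Both measures may still vary with list length. The higher myoblast values came from a list of 427 peaks, and the shorter MLL1 list was also the higher of its pair. The shorter Sin3A list and the shortest ING1 myotube list (122 peaks) had the lowest values of their groups. The part of list length was not tested.

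LSD1 had 1 list per state, with 4419 autosomal peaks in myoblasts and 16361 in myotubes. It covered 5.08% of the domain bases in myoblasts and 12.0% in myotubes, a ratio of 2.36, and 2.43% and 6.64% of Menin peaks under 5 kb, a ratio of 2.74. The longer myotube list thus covered more of both sets, by a smaller ratio in the domains, a difference that 1 list per state leaves without a test. LSD1 was listed in both states at 232 domains (34.4%, against 2.89% of all autosomal Menin peaks), in myoblasts only at 118 (17.5%, against 2.36%), in myotubes only at 131 (19.4%, against 6.7%) and in neither at 194 (28.7%, against 88%). In myotubes it met 363 domains in all (53.8%, against 9.6%) and covered at least 50% of 29 (4.30%, against 3.66%). LSD1 coverage was higher in myotubes at 311 domains (46.1%, against 8.97%) and lower at 170 (25.2%, against 2.99%). At 23 domains it was higher in myotubes by 50 percentage points or more (3.41%, against 3.25% of all autosomal Menin peaks), a share near the background, and at 0 domains was it lower by that much (0.115% of all).

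In myotubes ING1, Sin3A and LSD1 tended to meet at the same domains. Sin3A met 522 (77.3%, against 12.7% of all autosomal Menin peaks) and covered at least 50% of 53 (7.85%, against 5.08%). ING1 and Sin3A were both present at 465 (68.9%, against 9.2%), and LSD1 joined them at 319 (47.3%, against 4.64%). LSD1 lay without ING1 and Sin3A at 14 domains (2.07%), below the 4.05% of all autosomal Menin peaks. Of the domain bases under ING1 in myotubes, 71.9% were also under Sin3A, against 9.67% of the other domain bases.

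The widest domains give these patterns place by place. No gene annotation of build mm9 was used, so the gene names that follow are background from general knowledge of where these genes lie, given for orientation, and no value rests on them. Plec, Nfix and Myh9 were added to these names after the values had been seen. Among the 20 widest domains MLL1 covered from 5.64% to 87.9% (median 56.2%). It covered at least 50% of 12 of them, against 111 of all 675 domains. MLL1 covered more than Wdr5 did in 13, against 211 of all 675.

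The widest domain, at chr15:102772057-102820089 (48033 bp), lies at the Hoxc cluster, a row of homeobox genes that set position along the body. MLL1 covered 87.9% of it in 13 peaks, Wdr5 86.6% in 19 and ING1 33.0% in 16, while LSD1 of myoblasts had 5.28% and MLL3 20.7%. In myotubes ING1 covered 15.7%, Sin3A 13.8% and LSD1 2.60%. The next, at chr6:52158998-52192217 (33220 bp), lies at the Hoxa cluster and had MLL1 on 86.0%, Wdr5 on 76.4% and ING1 on 31.4% in myoblasts and 17.1% in myotubes. Menin replicates 1 and 2 covered 95.7% and 97.3% of the first and 99.0% and 95.8% of the second. These 2 domains thus had MLL1 and Wdr5 over most of their length, with ING1, LSD1 and Sin3A as separate islands.

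The third, at chr15:85482648-85513153 (30506 bp), had MLL1 on 84.9%, Wdr5 on 79.6%, MLL3 on 31.8% and ING1 on 35.9% in myoblasts and 36.4% in myotubes. The fifth, at chr1:148336622-148357047 (20426 bp), had MLL1 on 71.7% but Wdr5 on 22.5%, no ING1 peak in myoblasts and no LSD1 or Sin3A peak in myotubes. At chr4:88574286-88592024 (17739 bp) MLL1 covered 66.8%, ING1 32.0% in myoblasts and 13.4% in myotubes, and MLL3 none.

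The seventh departs from these. At chr15:76019585-76037199 (17615 bp), at Plec, a gene for a large cytoskeletal linker protein, MLL1 covered 5.64%, Wdr5 89.1%, LSD1 of myotubes 86.1% against 8.69% in myoblasts, and Sin3A 59.9%. The Menin replicate lists covered only 37.3% and 37.4% of it, so its width rests on the pooled list. The eighth, at chr8:87298340-87315643 (17304 bp), at Nfix, a transcription factor gene active in muscle, had MLL1 on 58.0%, Wdr5 on 30.9%, ING1 on 9.65% in myoblasts and no ING1 peak in myotubes. LSD1 covered 27.4% of this domain in myotubes and none in myoblasts. The ninth, at chr2:173084737-173101678 (16942 bp), resembled the seventh in having little MLL1 (6.01%) and much LSD1 in myotubes (59.95%, against 3.81% in myoblasts).

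**Figure D5:**
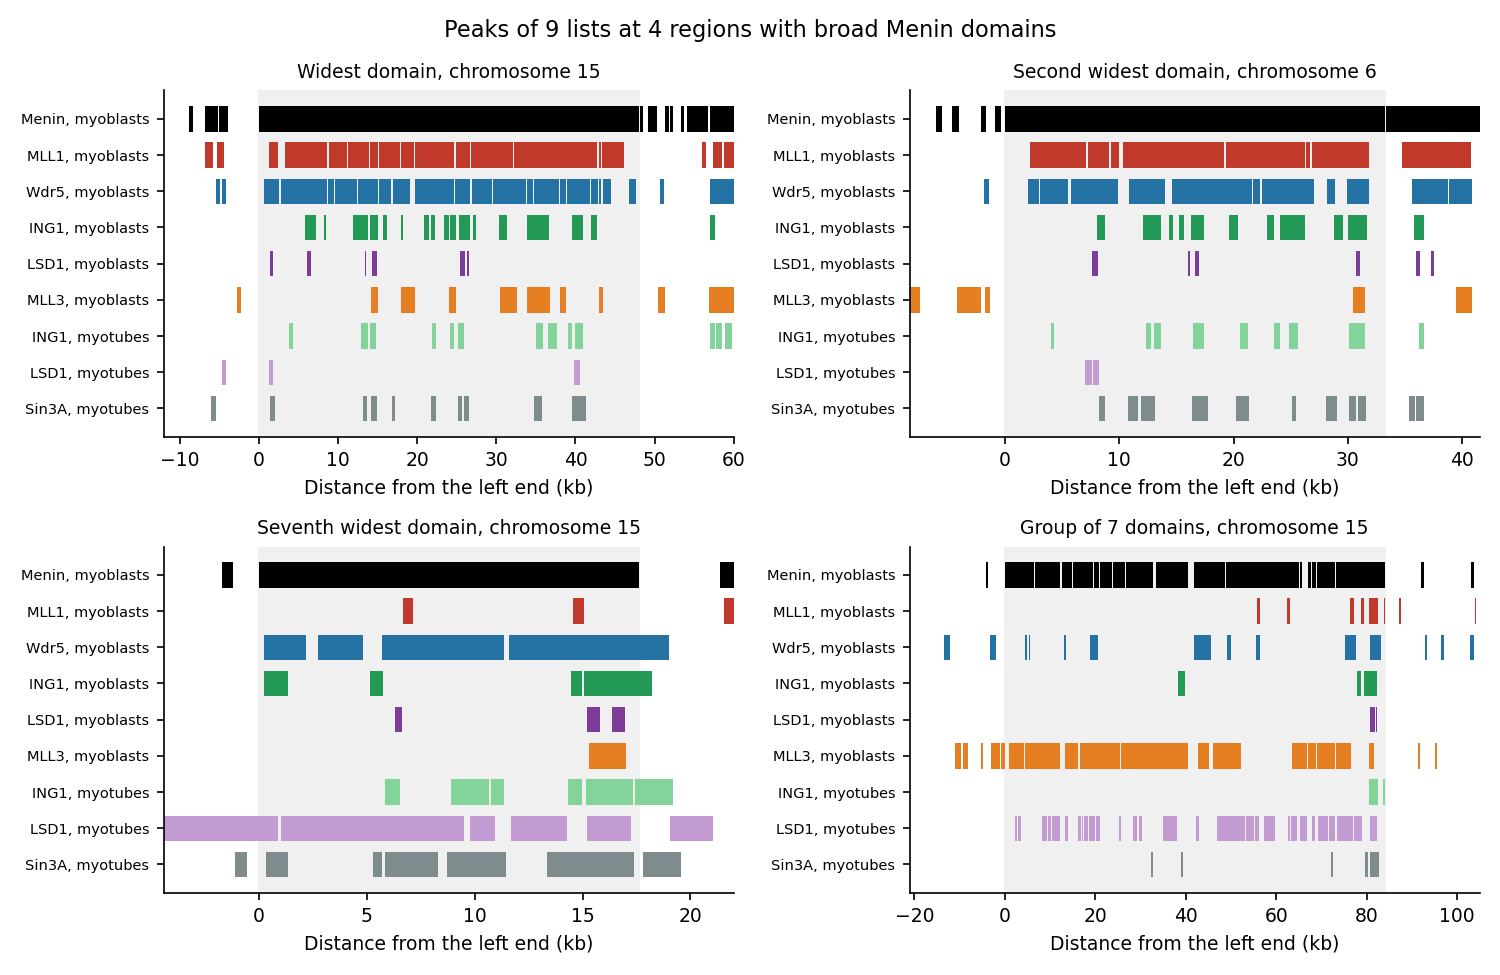
Peaks of 9 lists (rows) as bars along 4 regions, with the distance from the left end of each region in kb on the horizontal axis and grey marking the region. In the 2 widest domains MLL1 covers 87.9% and 86.0%, whereas in the seventh widest domain and in the group of 7 domains LSD1 of myotubes covers 86.1% and 50.6% and MLL1 5.64% and 8.73%.

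A further 11 of the 20 widest ran from 13153 to 16896 bp. MLL1 covered between 54.7% and 70.2% of 5 of them: chr13:63341302-63357866, chr13:63369551-63384021, chr11:120089597-120105324, chr3:137725376-137740334 and chr9:41388644-41402021. It covered 33.4% to 44.1% of 4: chr6:31061410-31078305, chr6:31026517-31039669, chr15:90425862-90440955 and chr2:60706700-60721598. At chr10:110355424-110371338 it covered 16.4%. At chr15:77639108-77655337 it covered 8.15%, and LSD1 of myotubes 70.3%. High LSD1 in myotubes was not confined to domains with little MLL1. It covered 49.2% of chr13:63369551-63384021, with MLL1 on 70.2%, and 40.0% of chr3:137725376-137740334, with MLL1 on 54.7%. Of the 20, the domain on chromosome 3 had the most LSD1 in myoblasts (14.7%) and the most ING1 in either state (37.9% and 46.8%).

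The largest group of neighbouring domains held 7 over 84.0 kb at chr15:77590289-77674286, a stretch that matches the body of Myh9, the gene for a non-muscle myosin heavy chain. MLL3 covered 64.2% of their bases, LSD1 of myotubes 50.6%, Wdr5 19.4% and MLL1 8.73%. The 5 leftmost domains had no MLL1 peak, with MLL3 on 70.0% to 100% of each, and the rightmost (10730 bp) had MLL1 on 35.5%, ING1 on 35.4% and MLL3 on 39.4%. Menin support also differed along the group, from 12.0% in replicate 1 and 0% in replicate 2 at the left end to 92.8% and 68.2% at the right end. The second group held 6 domains over 101.2 kb at chr8:87260728-87361971, around Nfix, with MLL1 on 31.6%, LSD1 of myotubes on 26.2% and MLL3 on 19.9%. A group of 4 at chr6:31026517-31078305 had MLL1 on 30.5% and no MLL3. A group of 3 at chr3:5205699-5240001 had the highest MLL1 coverage of the 10 groups of 3 or more (60.1%), without LSD1 in either state.

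Some domains lacked a whole set of partners. The widest without MLL1, at chr9:57791571-57804626 (13056 bp), was also the widest without Wdr5 and met only 1 MLL3 peak (4.46%), although the Menin replicate lists covered 78.7% and 57.7% of it. The next without MLL1 lay at chr8:87260728-87269421, with Wdr5 on 39.5% and MLL3 on 39.03%, and at chr8:13663105-13671789, with MLL3 on 26.4% and no Wdr5. The next without Wdr5 lay at chr15:80930391-80939826, with MLL1 on 14.5%, and at chr15:36709251-36718661. The widest without ING1 in either state were chr15:77639108-77655337, chr15:90425862-90440955 and the domain on chromosome 9.

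The domain at chr15:36709251-36718661 (9411 bp) had both the largest LSD1 difference between the states and complete MLL3 coverage. LSD1 covered 99.6% of it in myotubes and none in myoblasts, MLL3 covered 100% and MLL1 5.48%. The next by LSD1 difference were at chr15:96523706-96529255 (96.4% in myotubes, none in myoblasts) and at chr17:34251032-34257420 (93.0% against 12.2%, with Wdr5 on 90.4%). MLL3 coverage was also 100% at 3 domains in the group of 7, chr15:77597071-77602558, chr15:77617054-77623011 and chr15:77623781-77630707. Menin replicates 1 and 2 covered 40.02% and 17.3% of the first of these 6 domains, 74.02% and 73.1% of the second and 57.3% and 5.89% of that on chromosome 17. They covered 24.4% and 12.6%, 35.5% and 0%, and 62.6% and 46.8% of the last 3. Replicate 2 thus covered less than replicate 1 at each of the 6, by little at the second. The same order held at 513 of all 675 domains, so it is not particular to these.

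Compared with the 341 autosomal MLL3 peaks of 5 kb and more, the broad Menin domains carried a different set of factors. MLL1 covered 0.865% of the bases of the broad MLL3 peaks against 29.6% of the domains, Wdr5 6.76% against 38.5%, ING1 of myoblasts 1.75% against 19.2% and Sin3A 2.31% against 20.6%. LSD1 of myotubes was at 18.3% and 12.0%. Broad MLL3 peaks met 21 domains (3.11%, against 0.664% of all autosomal Menin peaks). The broad MLL3 peaks come from a single list, so this contrast has no replicate check on their side.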

How the data were processed

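The deposited files give peak boundaries in base pairs, per the file headers, for 14 replicate lists, 6 pooled lists made by the authors and 3 single lists, with no score for a peak. Per the submitters' processing notes, Bowtie 0.12.9, SAMtools 0.1.19 and bedtools 2.17.0 were used, with build mm9 (NCBIM37). Which caller made the peaks, at what threshold, and how lists were pooled is not given in the sources used here. Titles gave each sample's group and number.

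Left boundaries were read as counted from 0, so printed starts are 1 higher. Lists were restricted to 19 autosomes. Covered bases and overlaps of at least 1 bp were computed in Python 3.11.15 (numpy 2.4.6, pandas 2.3.3), and the functions returned the true value in all 4000 simulated regions. Depth is unknown. Tests were exact permutations over replicate lists (scipy 1.17.1), two-sided, with Benjamini-Hochberg adjustment over 7. Regions were named by rule: the 20 widest, the 3 widest without MLL1, without Wdr5 or without ING1, the 3 with the largest LSD1 difference or MLL3 coverage, and those nearest the threshold; groups of neighbouring domains were named after their values were seen. Of the 20 widest, 1 domain is not reported here. The domains, the lists and these rules were chosen with earlier results of these data known. Sequences of the domains were not used here. A RefSeq table of GRCm38.p6 served only to check that the genes named as background lie on the same chromosome.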

Additional observations from a re-analysis of the deposited data

How the results depend on the processing

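Coverage of the domains in percent of bases was recomputed with other thresholds, domain sets and lists, and the differences between pooled and replicate lists were the largest. With domains of 8000 bp and more (114), MLL1 covered 42.04% and ING1 of myotubes 14.3%. With the 447 domains covered to 50% or more by each Menin replicate list, MLL3 covered 11.8%. With unions of replicate lists Wdr5 covered 15.3% and ING1 of myotubes 5.56%. MLL1 fell from 29.6% to 19.4% with its union, ING1 of myoblasts from 19.2% to 11.9% and Sin3A from 20.6% to 16.3%. Leaving out 1 replicate from these unions gave 4.06% to 18.9% for MLL1, 8.90% to 13.8% for Wdr5, 0.938% to 11.8% for ING1 of myoblasts, 3.29% to 5.55% for ING1 of myotubes and 0.354% to 16.3% for Sin3A. The low ends came without MLL1 replicate 1, ING1 myoblast replicate 2 and Sin3A replicate 1, the longer list of each pair; fewer peaks are then left to cover the domains. Ratios to Menin peaks under 5 kb stayed above 1 in all these unions and remainders, from 1.29 to 22.5. With an overlap of at least 500 bp the share of domains met by LSD1 of myoblasts went from 51.9% to 29.3%. Of the 84 alternatives, 61 left the call as it was. For coverage and shares this means a move within the spread of the value. For the ING1 comparison below it means only the same direction and no call. Where a factor had replicates, the spread of its coverage was their SD, 10.52 percentage points for MLL1 and 11.26 for Sin3A. For single lists and for shares it was a 95% counting error that treats domains as independent. The falls of MLL1, ING1 of myoblasts and Sin3A with unions thus count as unchanged only because replicate lists differed widely.

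For ING1 between the states, the difference in coverage (myotubes minus myoblasts) was −3.89 percentage points. It reversed to 1.53 without ING1 myoblast replicate 2, and lay between −9.30 and 1.53 when each replicate was left out in turn. With a replicate block over pairs 1 and 2 it was −2.71 (exact permutation p = 1). The labels do not say that equal numbers share a culture. The deviations of equal-numbered lists correlated at −0.15 for number 1 and 0.36 for number 2 over the domains. Those of myoblast lists 1 and 2 with myotube list 3 correlated at 0.47 and −0.47. With 2 myoblast lists the deviations from their mean mirror each other, so these values cannot show whether equal numbers belong together.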

Other observations

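Chromosome X lay outside the rule and held 7 Menin peaks of 5 kb or more among 1116. Their median width was 5735 bp, and the widest, from 18736188 to 18746484, measured 10297 bp. MLL1 covered 27.4% of their bases and Wdr5 31.8%, against 29.6% and 38.5% in the autosomal domains. ING1 covered 8.50% in myoblasts and 10.2% in myotubes, Sin3A 8.48% and MLL3 2.31%. LSD1 of myoblasts met none of the 7, and LSD1 of myotubes covered 1.34%. With 7 regions these values are a description, and no difference from the autosomes was tested.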
